A study of Mus musculus with 5 samples.

Results

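The RNAs of 10 secreted or membrane proteins of epithelial defence were followed in the mammary glands of ovariectomized mice: Lcn2, Ltf, Slpi, Wfdc2, Reg3g, Defb1, Hp, Saa3, Pigr and Dmbt1. They are 10 of the 27998 genes in the count tables and were taken by their symbols. They were chosen by their UMI counts across luminal, basal and fibroblast cells of these same libraries, so their levels and the ratios between libraries are descriptions and no test was made of them. The genes were highest in different classes among the 4 compared, which were hormone-sensing luminal, alveolar luminal, basal and fibroblast cells. Lcn2 and Ltf were highest in alveolar luminal cells, Wfdc2, Reg3g and Dmbt1 in hormone-sensing luminal cells, and Slpi in basal cells, Hp was at like levels in both luminal lineages in 4 of 5 libraries, and Saa3, Pigr and Defb1 were held by few cells.

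RNA of single cells was measured in whole mammary glands of BALB/cj mice aged 30 weeks, after the lymph node and dead cells had been removed and without sorting. All mice had been ovariectomized, and treatment began 20 weeks later and lasted 1 week. There were 5 groups with 1 library each: DMSO vehicle and control food (OVX), daily intraperitoneal 17β-estradiol at 1 µg per animal (OVX_E2), 17β-estradiol with food holding the flame retardants BDE-47, BDE-100 and BDE-153 at 7.1, 0.4 and 0.9 mg/kg (OVX_E2_PBDE), 17β-estradiol with progesterone at 0.1 mg per animal (OVX_E2_P4), and all of these together (OVX_E2_P4_PBDE). Groups without PBDEs received nutrient-matched food with DMSO. The number of mice behind a library is not given in the sources used here, so a difference between libraries could come from treatment, animals or preparation, and these cannot be told apart.

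Mammary ducts have an inner luminal and an outer basal layer. Luminal cells are either hormone-sensing (L-Hor), with receptors for estrogen and progesterone, or alveolar (L-Alv), the precursors of milk-making cells. Milk and the duct lining carry proteins that starve bacteria of iron, block proteases or break bacterial walls, and many of these proteins also rise in involution and inflammation of the gland.

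The libraries held 14344 barcodes, of which 14317 passed the filters, with 19982067 to 42012988 UMIs per library and a median of 5345 to 8698 UMIs per barcode. Any pair of libraries shared 3 to 15 barcode sequences. Clusters were named from marker genes that did not include the 10 genes, and all 10 were left out of the clustering. This gave 2535 L-Hor-like, 1088 L-Alv-like, 405 basal-like and 7260 fibroblast-like cells over the 5 libraries, with only 31 L-Alv-like and 60 basal-like cells in OVX. The L-Hor markers together stood at 5759 to 7980 counts per 1000000 UMIs (CPM) in L-Hor-like cells and the L-Alv markers at 9508 to 18864 CPM in L-Alv-like cells. A further 1932 barcodes carried markers of both luminal lineages, with 3070 to 3585 CPM of the L-Hor list and 3845 to 6536 CPM of the L-Alv list. Their median depth was 15372 to 25546 UMIs, against 5452 to 11734 in L-Alv-like cells. They were called mixed luminal and kept apart, since some of them may be droplets with more than 1 cell.

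A level adds up the UMIs of 1 gene in 1 class and library and is given per 1000000 UMIs of that class. Intervals are exact 95% Poisson intervals, or for a ratio of levels exact conditional intervals, and they cover counting error only. With 1 library per group no difference could be tested against the spread between animals. A ratio of at least 2-fold, with at least 50 UMIs over both libraries, was used as a limit of size. Each count of genes past it between treatments is given beside the share of all genes that passed it. No such share was computed between the luminal lineages or for other settings of the analysis. The 4 comparisons share libraries and are not independent of each other.

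The promoters of 5 genes are shown, each of which was highest in the same class among the 3 epithelial classes compared in every library. Lcn2 was also at 786 to 1627 CPM in basal-like cells. Of the 10 genes, 7 had a promoter in the RefSeq table for GRCm38.p6. Each line holds the 250 bases before the RefSeq start of the transcript, 5′ to 3′ on the strand of the gene. Capitals mark the letters of any of 6 short motifs searched on both strands. The gene spans given below are from GENCODE and can begin further upstream. The lines of Lcn2, Slpi and Wfdc2 lie inside those spans, and that of Ltf overlaps its span. The alveolar genes were Lcn2 and Ltf, which code for lipocalin 2 and lactoferrin.
Lcn2, chr2:32387740-32387989, minus strand: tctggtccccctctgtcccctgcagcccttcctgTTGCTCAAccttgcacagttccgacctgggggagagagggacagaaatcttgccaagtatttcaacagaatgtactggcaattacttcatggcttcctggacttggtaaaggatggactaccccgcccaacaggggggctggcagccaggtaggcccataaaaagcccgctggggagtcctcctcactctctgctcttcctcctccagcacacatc
Ltf, chr9:111019042-111019291, plus strand: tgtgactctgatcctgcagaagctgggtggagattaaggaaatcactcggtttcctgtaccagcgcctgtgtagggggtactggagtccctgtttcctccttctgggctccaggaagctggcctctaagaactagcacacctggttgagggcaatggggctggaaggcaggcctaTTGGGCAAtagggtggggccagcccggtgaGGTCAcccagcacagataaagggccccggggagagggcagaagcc
The basal gene was Slpi, and the hormone-sensing genes were Wfdc2 and Reg3g.
Slpi, chr2:164356508-164356757, minus strand: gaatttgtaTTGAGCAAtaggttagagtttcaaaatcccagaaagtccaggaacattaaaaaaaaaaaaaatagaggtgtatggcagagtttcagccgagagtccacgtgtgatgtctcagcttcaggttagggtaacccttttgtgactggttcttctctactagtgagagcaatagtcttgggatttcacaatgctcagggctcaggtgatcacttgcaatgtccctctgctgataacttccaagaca
Wfdc2, chr2:164562466-164562715, plus strand: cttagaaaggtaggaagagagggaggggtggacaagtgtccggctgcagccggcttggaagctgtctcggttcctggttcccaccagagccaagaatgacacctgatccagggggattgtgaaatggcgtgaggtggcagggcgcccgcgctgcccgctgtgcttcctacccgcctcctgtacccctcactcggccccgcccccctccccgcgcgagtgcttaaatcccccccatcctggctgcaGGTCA
Reg3g, chr6:78468875-78469124, minus strand: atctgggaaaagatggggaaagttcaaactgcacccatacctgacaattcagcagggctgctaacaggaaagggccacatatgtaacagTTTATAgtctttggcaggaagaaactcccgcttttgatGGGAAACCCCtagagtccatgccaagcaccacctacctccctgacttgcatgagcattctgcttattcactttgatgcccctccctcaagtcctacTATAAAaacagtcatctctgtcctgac

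The motifs were counted in windows of 300 bases, which add the first 50 bases of the transcript, for the 8 windows of the 7 genes and for all 32851 promoters. The C/EBP letters TTGCNNAA were in Lcn2 (first base 216 before the start), Ltf (75 before), Slpi (241 before) and Saa3 (99 before), and in 10.8% of all promoters. The hormone response letters GGTCA were in Ltf (45 before the start), Pigr (12 before) and both Wfdc2 windows, and in 40.5% of all promoters. The full palindrome GGTCANNNTGACC, which contains GGTCA, was in 0 of the 8 windows and in 23 of all promoters. The NF-kB letters GGGANNNNCC were in Pigr and Reg3g (20.7% of all), TATAAA in Reg3g (13.6%) and TTCNNNGAA in Pigr (8.3%). A match in letters is a description of the sequence and not a binding site.

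Lcn2 codes for lipocalin 2, which binds the siderophores by which bacteria take up iron (ENSMUSG00000026822, chr2:32384633-32388252, GRCm38, minus strand, 6 exons). It had the most UMIs of the 10 genes, 115404. In L-Alv-like cells its level was 2956 CPM in OVX, 2840.0 in OVX_E2, 3142 in OVX_E2_P4, 2976 in OVX_E2_PBDE and 2902.5 in OVX_E2_P4_PBDE. The libraries were close together, with a mean of 2963 CPM ± 113 (SD, n = 5 libraries of different treatment), and the 4 ratios between treatments stayed under 2-fold. With classes from markers alone, 1 of these, OVX_E2 against OVX, was 2.15-fold. Over all libraries L-Alv-like cells held 33.8% of the Lcn2 UMIs and mixed luminal barcodes 52.1%. After each cell was thinned to 3000 UMIs, the median L-Alv-like cell held 7 to 10 UMIs of Lcn2, and 98% to 100% of these cells had at least 1. No single cell held more than 1.54% of the Lcn2 UMIs of any library.

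Basal-like cells also held Lcn2, at 1627 CPM in OVX, 811 in OVX_E2, 786 in OVX_E2_P4, 939 in OVX_E2_PBDE and 1344 in OVX_E2_P4_PBDE. OVX and OVX_E2_P4_PBDE were above the other 3 libraries. The 8 L-Alv markers together stood at 599 CPM in basal-like cells of OVX, 605 to 860 in the next 3 libraries and 2686 in OVX_E2_P4_PBDE. Their part in the level of the last library was not tested. In L-Hor-like cells Lcn2 was at 36.2 to 106 CPM, and the highest value, 106 in OVX_E2_P4, stood beside 81.2 CPM in fibroblast-like cells of the same library. The ratio of L-Hor-like to fibroblast-like level was 1.05 in OVX_E2, 1.31 in OVX_E2_P4, 1.33 in OVX_E2_PBDE and 0.996 in OVX_E2_P4_PBDE. RNA free in a cell suspension is counted in every class, and its part in these levels was not tested. In OVX the ratio was 4.70, but 34 of the 51 UMIs in L-Hor-like cells were in 1 cell, and the level without it was 22.8 CPM.

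Ltf codes for lactoferrin, the iron-binding protein of milk (ENSMUSG00000032496, chr9:111019271-111042767, plus strand, 17 exons). Its level in L-Alv-like cells was 1712 CPM in OVX, 401 in OVX_E2, 621 in OVX_E2_P4, 351 in OVX_E2_PBDE and 465 in OVX_E2_P4_PBDE. OVX stood alone at the top, on 31 cells in which the proliferation markers stood at 209 CPM together, against 4.66 to 13.4 CPM in the other libraries. The cell with the most held 86 of its 385 UMIs, and without that cell OVX was at 1361 CPM, still above each other library. Over all libraries L-Alv-like cells held 28.1% of the Ltf UMIs and mixed luminal barcodes 60.4%. Ltf was uneven from cell to cell. At 3000 UMIs per cell, 71.0% of L-Alv-like cells had a Ltf UMI in OVX and 38.7% to 46.0% in the other libraries, and the median cell held 1 UMI in OVX and 0 in the others. In L-Hor-like cells Ltf was at 9.06 to 29.5 CPM, against 6.06 to 26.6 CPM in fibroblast-like cells.

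Neutrophils also make both proteins, so their markers were read in the same cells. None of the 8 neutrophil markers had a UMI in L-Hor-like, L-Alv-like or basal-like cells of OVX, and in the other libraries their summed level was 2.47 to 8.70 CPM in L-Alv-like and 0 to 1.29 CPM in basal-like cells. Ngp and Camp, which code for granule proteins, were at 0 in each of these classes and libraries. Camp had 0 UMIs among all barcodes of the 5 libraries, so its 0 here tells nothing of neutrophil RNA. L-Alv-like cells with a Ltf UMI also had more Wfdc18, which codes for a further protein with WAP domains, than those without, as in OVX with 2653 against 886 CPM. The same order was seen in the other 4 libraries, where the level with a Ltf UMI was 1939 to 2698 CPM and that without was 1031 to 1779 CPM. Cells with a UMI of any given gene tend to be deeper, and the levels are relative to all UMIs of the cells.

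**Figure D1:**
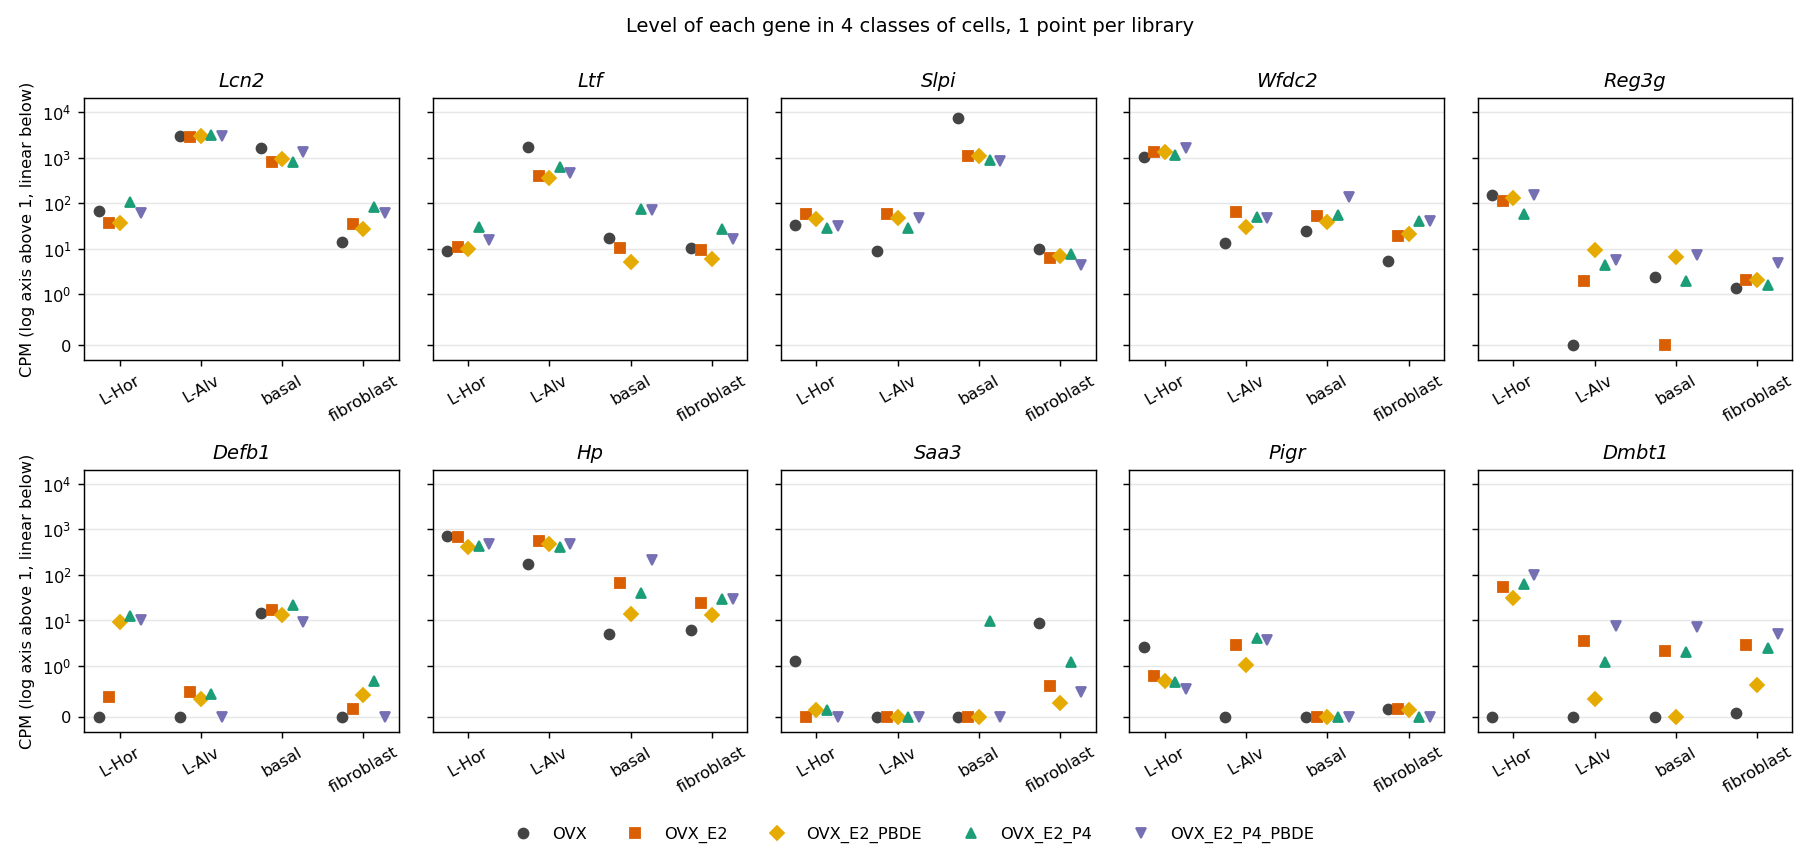
Level of the 10 genes (CPM, logarithmic above 1 and linear below) in L-Hor-like, L-Alv-like, basal-like and fibroblast-like cells, with 1 point per library. Lcn2 and Ltf stand highest in L-Alv-like cells, Slpi in basal-like cells and Wfdc2 and Reg3g in L-Hor-like cells in each of the 5 libraries.

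Slpi codes for the secretory leukocyte protease inhibitor, which blocks neutrophil elastase and has antibacterial activity (ENSMUSG00000017002, chr2:164354070-164389095, minus strand, 4 exons). It was a basal gene, with 7393 CPM in basal-like cells of OVX, 1082 in OVX_E2, 903 in OVX_E2_P4, 1060.3 in OVX_E2_PBDE and 829.6 in OVX_E2_P4_PBDE. The 4 libraries with 17β-estradiol lay close together and OVX was far above them. The Poisson interval of OVX was 7131 to 7662 CPM and that of OVX_E2 was 1017 to 1150 CPM. At 3000 UMIs per cell the median basal-like cell held 10.5 UMIs of Slpi in OVX and 1 in each of the other libraries, so the median cell was also higher in OVX. Cells of OVX were uneven, with quartiles of 1 and 31 UMIs. The 10 cells with the most held 47.4% of all Slpi UMIs of the OVX library. The cell with the most held 361 of the 2999 UMIs, and the level without it was 6781 CPM.

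Outside the basal layer Slpi was patchy. Its level was 29.0 to 56.5 CPM in L-Hor-like and 8.89 to 57.9 CPM in L-Alv-like cells, against 4.48 to 9.68 CPM in fibroblast-like cells. The 10 cells with the most held 59.8% to 96.2% of the UMIs in L-Hor-like cells, and in OVX_E2 a single cell held 85 of 283. In L-Hor-like cells thinned to 3000 UMIs, 3.57% to 5.57% had a Slpi UMI, against 0.938% to 2.46% of fibroblast-like cells.

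Wfdc2 codes for a related secreted protein with 2 WAP domains, also known as HE4 (ENSMUSG00000017723, chr2:164562413-164568510, plus strand, 5 exons). It marked the hormone-sensing lineage, with 1007 CPM in L-Hor-like cells of OVX, 1338 in OVX_E2, 1165 in OVX_E2_P4, 1329 in OVX_E2_PBDE and 1637 in OVX_E2_P4_PBDE. The lowest value was in OVX and the highest in OVX_E2_P4_PBDE. Between 91.3% and 96.3% of L-Hor-like cells had a UMI at 3000 UMIs per cell, and the median cell held 3 or 4. In L-Alv-like cells Wfdc2 was at 13.3 to 62.8 CPM and in fibroblast-like cells at 5.31 to 41.1 CPM.

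Reg3g codes for a C-type lectin that kills Gram-positive bacteria, best known from the gut (ENSMUSG00000030017, chr6:78466269-78468872, minus strand, 6 exons). In L-Hor-like cells its level was 150.1 CPM in OVX, 109 in OVX_E2, 58.2 in OVX_E2_P4, 128 in OVX_E2_PBDE and 154 in OVX_E2_P4_PBDE. OVX_E2_P4 was lowest and the interval of each other library lay above its own. Unlike Wfdc2, Reg3g was in a minority of the cells, 10.4% to 21.7% at 3000 UMIs per cell and 17.5% to 33.7% without thinning. Fibroblast-like cells had a UMI in 0.273% to 1.35% after thinning. L-Alv-like and basal-like cells were at 0 to 9.40 and 0 to 7.37 CPM.

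Reg3b is the closest relative of Reg3g among the listed genes, and reads of such near copies may be split or shared in counting, so the 2 are uncertain against each other. In L-Hor-like cells with a Reg3g UMI, Reg3b was at 60.3 CPM in OVX, 0 in OVX_E2, 22.7 in OVX_E2_P4, 37.2 in OVX_E2_PBDE and 80.6 in OVX_E2_P4_PBDE. In cells without one it was at 0, 3.41, 3.35, 7.93 and 5.03 CPM in the same order. Reg3b was thus higher in the cells with Reg3g in 4 of 5 libraries and lower in OVX_E2, where it had 12 UMIs in all L-Hor-like cells.

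Defb1 codes for beta-defensin 1, an antimicrobial peptide of many epithelia (ENSMUSG00000044748, chr8:21776599-21795185, plus strand, 2 exons). It had 592 UMIs in all. Basal-like cells held it sparsely, with 73 UMIs over the 5 libraries, from 6 in OVX to 32 in OVX_E2_P4. Its level there was 14.8 CPM in OVX, 16.9 in OVX_E2, 21.3 in OVX_E2_P4, 12.9 in OVX_E2_PBDE and 9.47 in OVX_E2_P4_PBDE, with no more than 3 UMIs in any cell. In L-Hor-like cells it had no UMI in OVX (0 of 92 cells, where a count of 0 allows up to 3.26% of cells with a UMI and sets no limit on cells that express the gene) and had 2 UMIs in OVX_E2, 94 in OVX_E2_P4, 65 in OVX_E2_PBDE and 37 in OVX_E2_P4_PBDE. They came from 32 cells of OVX_E2_P4, 15 of OVX_E2_PBDE and 7 of OVX_E2_P4_PBDE. A proliferating luminal cell of OVX_E2_PBDE held 53 of the 199 UMIs of that library. No endothelial-like or hematopoietic-like cell had a UMI of Defb1.

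Hp codes for haptoglobin, the carrier of free hemoglobin in blood (ENSMUSG00000031722, chr8:109575128-109579172, minus strand, 5 exons). It had 39619 UMIs and was in both luminal lineages. In L-Hor-like cells it was at 728 CPM in OVX, 678 in OVX_E2, 420.2 in OVX_E2_P4, 406 in OVX_E2_PBDE and 479.9 in OVX_E2_P4_PBDE. In L-Alv-like cells it was at 169, 564, 401, 472 and 479 CPM in the same order. The lineages differed in OVX, where L-Hor-like cells were 4.31-fold higher (95% interval 3.10 to 6.16), and were at ratios of 0.861 to 1.20 (L-Hor-like to L-Alv-like) in the 4 libraries with 17β-estradiol. In fibroblast-like cells Hp was at 6.19 to 29.6 CPM.

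Saa3 codes for serum amyloid A3, an acute phase protein made locally in tissues (ENSMUSG00000040026, chr7:46711998-46715700, minus strand, 4 exons). Its 170 UMIs were largely those of single cells. In OVX, 116 of 128 UMIs were in 1 fibroblast-like cell that had 4526 UMIs in all, and in OVX_E2_P4, 15 of 24 were in 1 basal-like cell. L-Alv-like cells had 0 UMIs in each library and L-Hor-like cells at most 1. No level of Saa3 could be given to a class of cells from these data.

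Pigr codes for the receptor that carries dimeric IgA across the epithelium into milk (ENSMUSG00000026417, chr1:130826684-130852249, plus strand, 11 exons). It had 23 to 50 UMIs per library. Of 172 UMIs in all, 101 were in mixed luminal barcodes, 40 in L-Alv-like and 18 in L-Hor-like cells. In OVX_E2_P4, 27 UMIs were in 26 of 585 L-Alv-like cells, and each other library had 6 or fewer in a smaller class. The L-Alv-like level was 4.06 CPM in OVX_E2_P4, 3.73 in OVX_E2_P4_PBDE, 2.97 in OVX_E2, 1.04 in OVX_E2_PBDE and 0 in OVX. Basal-like, endothelial-like and hematopoietic-like cells had 0. Jchain, whose product joins the IgA that Pigr carries, had 16111 UMIs and was at 4396 CPM in hematopoietic-like cells as a mean over libraries.

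Dmbt1 codes for a large scavenger receptor protein that clumps bacteria (ENSMUSG00000047517, chr7:131032053-131121630, plus strand, 47 exons). In L-Hor-like cells its level was 0 in OVX, 53.9 CPM in OVX_E2, 61.7 in OVX_E2_P4, 30.3 in OVX_E2_PBDE and 98.4 in OVX_E2_P4_PBDE. OVX had 11 UMIs of Dmbt1 among all its barcodes, 7 of them in 1 mixed luminal cell, against 601 to 973 UMIs in each other library. Within L-Hor-like cells Dmbt1 was in 6.23% to 14.6% of cells of the libraries with 17β-estradiol, and the 10 cells with the most held 47.5% to 64.1% of the UMIs. In OVX 0 of 92 cells had a UMI, at a median of 6540 UMIs per cell. A count of 0 allows up to 3.26% of cells with a UMI, by counting error only, and sets no limit on cells that express the gene. The unnamed cluster of OVX_E2_P4_PBDE, 22 cells, was above the L-Hor-like cells of its library with 29 UMIs of Dmbt1, or 143 CPM. Fibroblast-like cells were at 0.0728 to 4.98 CPM.

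**Figure D2:**
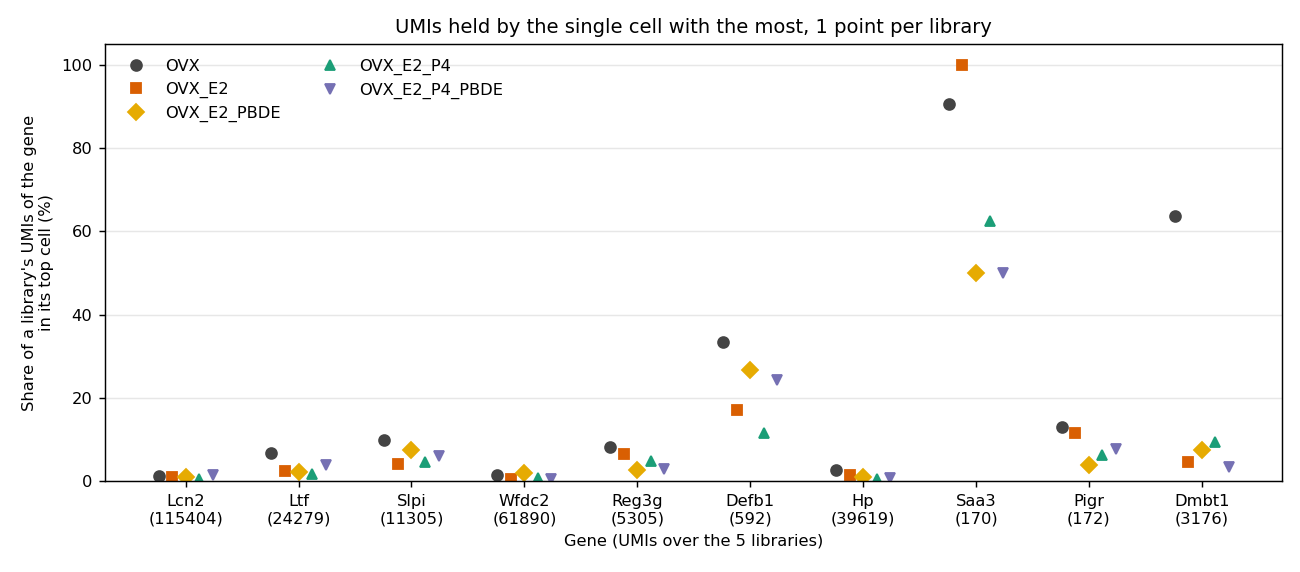
Share of the UMIs of each gene in a library (%) that was held by the cell with the most, with 1 point per library and the total UMIs of the gene under its name. Saa3 stands at 50% to 100% in each library and Dmbt1 at 63.6% in OVX, while Lcn2 stays at or under 1.54%.

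Read as a division between luminal lineages, with each library given equal weight, Lcn2 was 48.2-fold and Ltf 47.6-fold higher in L-Alv-like than in L-Hor-like cells, and the order held in 5 of 5 libraries. In the other direction Wfdc2 was 31.8-fold and Reg3g 27.9-fold higher in L-Hor-like cells, again in 5 of 5 libraries. Dmbt1 was 19.6-fold higher in L-Hor-like cells, in the 4 libraries that had it. Defb1 was 24.9-fold higher there, on few cells and in 3 of 5 libraries, with 5 UMIs in all L-Alv-like cells. In OVX neither class had a UMI of Defb1, and in OVX_E2 L-Hor-like cells had 2 and L-Alv-like cells 1. Slpi and Hp did not divide the lineages, with ratios of 0.974 (L-Alv-like to L-Hor-like) and 1.30 (L-Hor-like to L-Alv-like). Pigr stood 2.22-fold higher in L-Alv-like cells, on few UMIs. Within single libraries the ratios between the lineages ranged for Lcn2 from 29.6 in OVX_E2_P4 to 80.3 in OVX_E2_PBDE and for Wfdc2 from 21.3 in OVX_E2 to 75.5 in OVX, the latter on 3 UMIs in L-Alv-like cells. When the mixed luminal barcodes were added to both classes, 0 genes were past 2-fold, as the same barcodes then stood in both classes.

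The genes most like each member in pattern, by Pearson correlation of log2(CPM + 1) over 39 sums of a library and class, are given as names with r. These sums share libraries, so the correlations are descriptions. Wfdc2 ran closest to Pgr (r = 0.975), Cited1 and Prlr, which are hormone-sensing markers used to name the clusters, and Ltf to Fcgbp (0.958), Csn3 and Spns3. Lcn2, high in L-Alv-like and basal-like cells, ran closest to Sox10 (0.929), Gm15867 and Ccdc129, and Slpi to 1500015O10Rik (0.904), Cnn1 and Krt14. Hp was nearest to Smim22 (0.965), 2610528J11Rik and Cldn4, Reg3g to Cldn8 (0.913), Cited1 and Cdo1, Dmbt1 to Ido1 (0.882), Agps and Cxcl15, and Defb1 to Mfsd2a (0.812), Siva1 and Trim29. Csn3, Cnn1 and Krt14 were, like Cited1, in the marker lists used to name the clusters, so these correlations are not independent of the naming. Sox10 was in the Schwann list, which was scored but could not name a cluster.

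The comparison of OVX_E2 with OVX asks what 17β-estradiol does to the regressed gland. In L-Hor-like cells the gene past 2-fold was Dmbt1, with 270 UMIs in OVX_E2 and 0 in OVX. It was at least 13.9-fold higher against a floor of 3 UMIs in OVX, while the exact conditional interval of the ratio began at 11.2 and classes from markers alone gave 13.4-fold. Of 7393 genes, 2.58% were at least 2-fold higher and 6.84% lower, and among the 10 genes 7 had enough UMIs, with 1 higher and 0 lower. Wfdc2 was 1.33-fold higher (1.23 to 1.43), Reg3g stood at a ratio of 0.728 (0.595 to 0.897) and Hp at 0.931 (0.851 to 1.02). These values depended on the classes. With classes from markers alone Reg3g turned to 2.14-fold and Wfdc2 to 2.35-fold higher, Slpi went from 1.68-fold to 2.67-fold, and Ltf turned from 1.21-fold to a ratio of 0.139. With mixed luminal barcodes added Ltf was at 0.338 and Slpi at 0.441. The median log2 ratio of the 7 genes was 0.28 and that of all genes was -0.24.

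In L-Alv-like cells Ltf was 4.27-fold lower in OVX_E2 (3.77 to 4.83) and Hp 3.34-fold higher (2.42 to 4.74), while Lcn2 stood at a ratio of 0.961 (0.886 to 1.04). Slpi and Wfdc2 were also past 2-fold, but on 2 and 3 UMIs in OVX, at 6.51-fold (1.76 to 54.4) and 4.71-fold (1.58 to 23.1) higher. Among all 4154 genes 6.55% were higher and 5.73% lower, with 3 and 1 of the 5 countable members. With classes from markers alone Ltf was at a ratio of 0.869 and Lcn2 was 2.15-fold higher, and with mixed luminal barcodes added Hp was at 1.60 and Wfdc2 at 1.04. Slpi reversed under both of these alternatives, to 0.909 and 0.379. OVX had no separate class of proliferating luminal cells, while OVX_E2 had 132 such cells apart. The L-Alv-like cells of OVX held more of the proliferation markers, as given above, and their part in these ratios was not tested.

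In basal-like cells Slpi was 6.83-fold lower in OVX_E2 than in OVX (6.36 to 7.34), and it stayed past 2-fold under each of the 9 alternatives. Adding mixed luminal barcodes or lowering the minimum to 20 UMIs could not change this basal-like ratio. Of the others, classes from markers alone came nearest to 1, with a log2 ratio of -1.23. Lcn2 was 2.01-fold lower (1.80 to 2.23), just past the limit, and was under it with a mitochondrial limit of 5% (ratio 0.539) and after thinning (0.579), and reversed with classes from markers alone (1.65). Hp was 13.5-fold (3.58 to 114) and Wfdc2 2.14-fold (1.07 to 4.73) higher, on 2 and 10 UMIs in OVX. Of the 63 Hp UMIs of OVX_E2, 34 were in 1 cell. Too few Hp UMIs were left for a ratio without the top cell of each sum, after thinning or without the top 20% of Scrublet scores, and none could be formed with the fibroblast-like level subtracted. Wfdc2 was 1.74-fold higher with that subtraction. Among 3066 genes 6.16% were higher and 8.12% lower, with 2 and 2 of the 4 countable members. The 10 listed genes that respond to dissociation stress together stood at 13250 CPM in basal-like cells of OVX and at 4595 to 7116 CPM in the other libraries. Of the 10, 5 were at least 2-fold lower in OVX_E2 than in OVX (Fos, Junb, Hspa1a, Hspa1b and Hsp90aa1), and their part in the Slpi and Lcn2 levels was not tested.

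**Figure D3:**
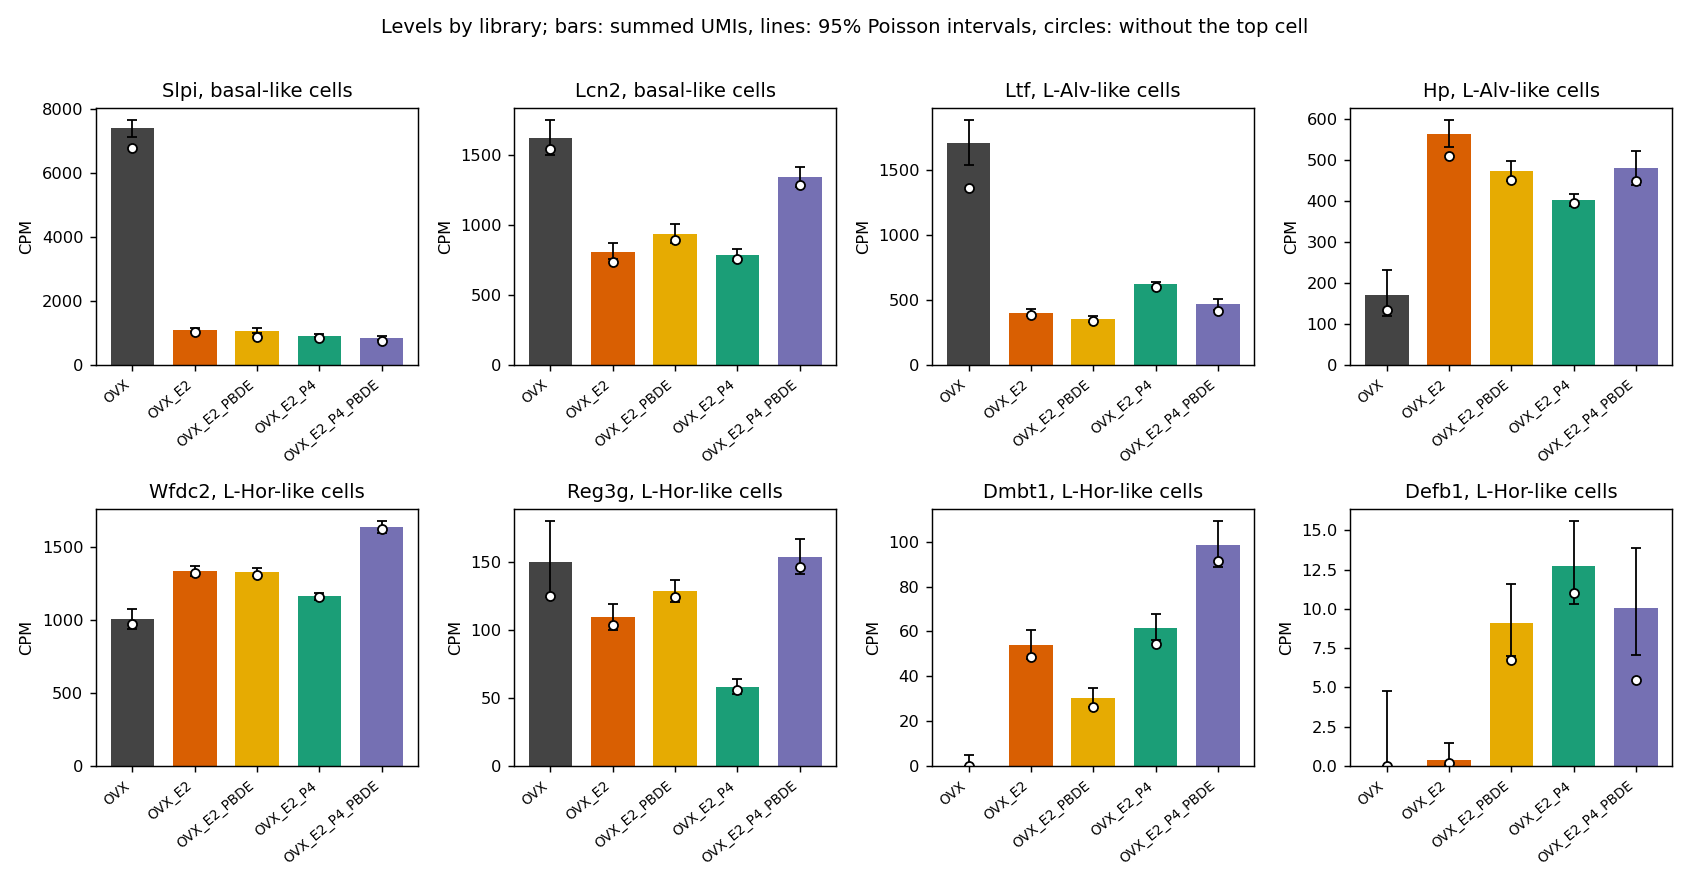
Levels (CPM, bars from 0) of 8 gene and class pairs by library, with lines for exact 95% Poisson intervals and open circles for the level without the cell that held the most UMIs. Slpi in basal-like cells and Ltf in L-Alv-like cells stand highest in OVX, and Dmbt1 in L-Hor-like cells is at 0 there.

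In fibroblast-like cells Lcn2 was 2.44-fold (2.01 to 2.97), Wfdc2 3.58-fold (2.66 to 4.84) and Hp 3.82-fold (2.92 to 5.04) higher in OVX_E2, at 34.3, 19.0 and 23.7 CPM. With classes from markers alone Wfdc2 was 1.82-fold higher. These levels stayed far under those of the luminal class with the most of each RNA. Epithelial barcodes were also a larger part of OVX_E2, where L-Hor-like cells were 21.3% of barcodes against 2.96% in OVX. The part of RNA free in the suspension in these fibroblast-like levels was not tested. Saa3 was 15.1-fold lower, which is the single cell of OVX named above. Among 10464 genes 2.64% were higher and 1.6% lower, with 3 and 1 of 6 countable members. In endothelial-like cells Wfdc2 was at 3.89 CPM in OVX, on only 33 cells and very few UMIs, and at 23.6 in OVX_E2. The OVX value stood at 0.733 of the fibroblast-like level, with an interval of 0.0183 to 4.21.

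**Figure D4:**
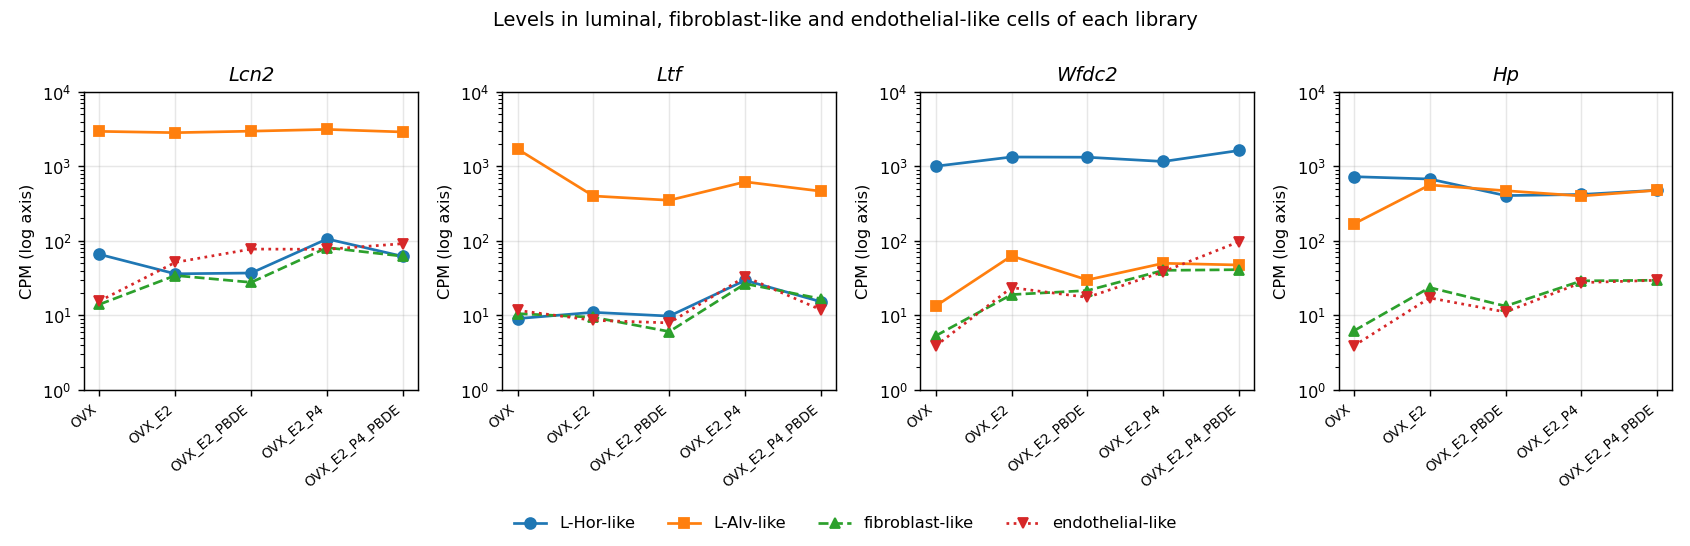
Levels (CPM, logarithmic axis) of Lcn2, Ltf, Wfdc2 and Hp by library in L-Hor-like, L-Alv-like, fibroblast-like and endothelial-like cells. The L-Hor-like level of Lcn2 and Ltf lies near the fibroblast-like one, as at 106 and 81.2 CPM of Lcn2 in OVX_E2_P4, except for Lcn2 in OVX, where it is 4.70-fold higher, while Wfdc2 and Hp in L-Hor-like cells lie far above it.

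The comparison of OVX_E2_P4 with OVX_E2 asks what progesterone adds. In L-Hor-like cells Lcn2 was 2.94-fold higher (2.50 to 3.47), Ltf 2.69-fold (1.99 to 3.68) and Defb1 31.9-fold (8.58 to 267, on 2 UMIs in OVX_E2). The OVX_E2 library held 82 UMIs of Defb1 in all. Its cells with the most, at 14, 9 and 9 UMIs, were proliferating or mixed luminal, so the Defb1 ratio depended on the classes. The lowest log2 ratio of Defb1 among the alternatives was 1.38. Among 9277 genes 0.981% were higher and 0.625% lower, with 3 and 0 of 8 countable members. In fibroblast-like cells of the same libraries Lcn2 was 2.37-fold higher (2.02 to 2.79), Ltf 2.82-fold (2.09 to 3.85) and Wfdc2 2.12-fold (1.70 to 2.65), where 1.16% of 9653 genes were higher and 0.477% lower. The ratios of Lcn2 and Ltf were thus of like size in L-Hor-like and fibroblast-like cells, and with mixed luminal barcodes added the L-Hor-like ratios were 0.908 and 1.41. Lcn2 was 1.53-fold higher there with classes from markers alone, and Ltf 1.88-fold with the fibroblast-like level subtracted. That subtraction raised the log2 ratio of Lcn2 in L-Hor-like cells to 3.76. It left a small remainder in OVX_E2, where Lcn2 was at 36.2 CPM against 34.3 CPM in fibroblast-like cells. The part of RNA free in the suspension in these ratios was not tested.

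Reg3g in L-Hor-like cells stood at a ratio of 0.533 (0.468 to 0.606) in OVX_E2_P4 against OVX_E2, Hp at 0.620 (0.590 to 0.651) and Wfdc2 at 0.871 (0.843 to 0.899), none of them past the limit. Slpi was lowest of the countable members, just short of the limit, at 0.512 (0.427 to 0.614) in L-Hor-like and 0.504 (0.399 to 0.639) in L-Alv-like cells. It was past 2-fold lower in L-Hor-like cells with a mitochondrial limit of 5% (0.394), a resolution of 1 (0.458), thinning (0.474) and the fibroblast-like level subtracted (0.420), and in L-Alv-like cells with that subtraction (0.413) and without the top 20% of Scrublet scores (0.482). In L-Alv-like cells 0 of 5 countable members were past 2-fold in either direction, beside 1.16% higher and 0.956% lower of 8264 genes. Ltf came nearest among those higher, at 1.55-fold (1.44 to 1.67), and Lcn2 was at 1.11-fold (1.07 to 1.14). In basal-like cells Ltf was 7.07-fold higher (3.71 to 15.2), with 112 UMIs against 10, 48 of the 112 in 1 cell, and 1.53-fold higher with classes from markers alone. There 0.972% of 4629 genes were higher and 1.84% lower, with 1 and 0 of 5 countable members. The fibroblast-like Ltf level of 26.6 CPM stood under the basal-like level of 74.5 CPM in this library.

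The comparison of OVX_E2_PBDE with OVX_E2 asks what the flame retardants add to 17β-estradiol. Defb1, Wfdc2 and Hp were past 2-fold, each in a different class. In L-Hor-like cells Defb1 was 22.8-fold higher (6.05 to 192), on 65 UMIs in 15 cells against 2 (1.47-fold with classes from markers alone), and the other 7 countable members were within the limit, as Wfdc2 at a ratio of 0.993 (0.963 to 1.03) and Hp at 0.599 (0.570 to 0.630). Among 9134 genes 0.515% were higher and 1.24% lower, with 1 and 0 of 8 countable members. In L-Alv-like cells Wfdc2 was 2.10-fold lower (1.58 to 2.79), from 62.8 to 29.9 CPM with 21.6 CPM in fibroblast-like cells of OVX_E2_PBDE. There 0.846% of 6500 genes were higher and 1.0% lower, with 0 and 1 of 5 countable members. Wfdc2 stood at 1.07 with classes from markers alone and at 1.11 with mixed luminal barcodes added. Lcn2 there was at a ratio of 1.05 (1.01 to 1.08) and Ltf at 0.877 (0.799 to 0.963).

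In basal-like cells Hp was 4.67-fold lower in OVX_E2_PBDE (2.44 to 9.83), with 11 UMIs against 63, but 34 of the 63 were in 1 cell. Its direction reversed when the mitochondrial limit was 5% or classes came from markers alone. Slpi was at a ratio of 0.980 (0.893 to 1.08), but at 0.438 with a mitochondrial limit of 5%, where Wfdc2 turned from 0.735 to 2.67-fold higher and Ltf was 8.53-fold higher. Among 3556 genes 0.591% were higher and 2.19% lower, with 0 and 1 of 4 countable members. In fibroblast-like cells 0.287% of 10440 genes were higher and 1.18% lower, with 0 of 5 countable members in either direction.

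The comparison of OVX_E2_P4_PBDE with OVX_E2_P4 asks the same in the presence of progesterone. In L-Hor-like cells Reg3g was 2.64-fold higher (2.32 to 3.00), with 565 UMIs in 136 cells against 430 in 132 cells. It was the member past the limit there, beside 0.627% of 8926 genes higher and 2.31% lower. Reg3b was also higher, 3.32-fold (2.33 to 4.78). Dmbt1 was 1.59-fold (1.39 to 1.83) and Wfdc2 1.41-fold (1.36 to 1.45) higher, and Lcn2 stood at a ratio of 0.583 (0.501 to 0.677), as did Ltf at 0.516 (0.378 to 0.695), which was 0.421 with classes from markers alone. The Reg3g level of OVX_E2_P4_PBDE, 154 CPM, was close to that of OVX, 150.1 CPM, and OVX_E2_P4 was the library that stood apart. With mixed luminal barcodes added the ratio of Reg3g was 1.72.

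In basal-like cells of OVX_E2_P4_PBDE Hp was 5.11-fold (3.82 to 6.93) and Wfdc2 2.49-fold (1.87 to 3.32) higher than in OVX_E2_P4. Wfdc2 was just under the limit, at 1.95 and 1.90, with a mitochondrial limit of 5% and without the top 20% of Scrublet scores. The 8 L-Hor markers stood at 1202 CPM in these cells against 61.6 to 395 CPM in basal-like cells of the other libraries, and the basal markers at 6082 against 10981 to 15392 CPM, so the class held more luminal RNA in this library. Among 4490 genes 2.85% were higher and 4.1% lower, with 2 and 0 of 5 countable members. Slpi was at a ratio of 0.919 (0.840 to 1.00). After thinning its direction turned, with a mean of 4.83 UMIs per basal-like cell in OVX_E2_P4_PBDE and 3.22 in OVX_E2_P4. The median was 1 in both. In L-Alv-like cells 0 of 5 countable members were past the limit, beside 1.18% of 7897 genes higher and 4.31% lower, though Wfdc2 went from 0.949 to 2.55-fold with classes from markers alone, and in fibroblast-like cells 0 of 5, beside 0.516% of 8911 genes higher and 2.13% lower.

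Related genes of the same pathways were read for context. Of 10 other genes with WAP domains, 4 had at least 500 UMIs. Wfdc18 stood at 2012 CPM in L-Alv-like against 31.7 CPM in L-Hor-like cells as a mean over libraries, Wfdc3 at 36.4 against 5.04 CPM and Wfdc12 at 8.03 against 17.9 CPM. Wfdc17 was at 5.01 and 2.68 CPM in these classes and at 675 CPM in hematopoietic-like cells. Wfdc18 in L-Hor-like cells was 6.26-fold higher in OVX_E2_P4 than in OVX_E2 (4.90 to 8.12), beside 3.45-fold (2.69 to 4.47) in fibroblast-like cells. Of 12 other acute phase genes, 4 had at least 500 UMIs. Fgg and Fgb, which code for fibrinogen chains, were L-Hor-like genes at 91.6 and 65.8 CPM, and Chil1 was highest in basal-like cells at 316 CPM. Fgg in L-Hor-like cells was 2.08-fold higher (1.83 to 2.37) in OVX_E2_P4 than in OVX_E2, and stood at a ratio of 0.441 (0.378 to 0.512) in OVX_E2_P4_PBDE against OVX_E2_P4. In OVX_E2 it was itself past 2-fold lower than in OVX.

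Of 12 other antimicrobial peptides and lectins only Ang and Reg3b had at least 500 UMIs, and 4 were at 0 in each library. Reg3b in L-Hor-like cells was 2.94-fold higher in OVX_E2_P4 (1.55 to 6.04) and 7.35-fold higher in OVX_E2_PBDE (4.06 to 14.6), each against OVX_E2 with 12 UMIs. Of 15 secreted mucosal genes 9 had at least 500 UMIs and 8 of these were highest in L-Alv-like cells among the 4 classes compared, Spp1 at 2043 CPM and Mfge8 at 1802 CPM among them. Mfge8 is also an L-Alv marker used to name the clusters, so its place was partly set by the naming. Hematopoietic-like cells stood above L-Alv-like cells for Cst3, at 6349 against 3772 CPM, and Lyz1, at 858 against 2.78 CPM. Spp1 in L-Alv-like cells stood at 3108 CPM in OVX and 1136 CPM in OVX_E2, a ratio of 0.366 (0.336 to 0.398). Of 12 measured genes of bacterial sensing and signalling, 10 were highest in fibroblast-like cells among these classes, and Cd14 at 385 CPM and Il1rn at 3.91 CPM in L-Alv-like cells. Hematopoietic-like cells were above both, with 804 CPM of Cd14 and 93.7 CPM of Il1rn.

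Cebpb, which codes for a transcription factor of acute phase genes, was past 2-fold higher in each of the 4 classes in OVX_E2_P4 against OVX_E2, from 2.88-fold (2.57 to 3.23) in basal-like to 4.00-fold (3.58 to 4.49) in L-Hor-like cells. It was also higher in each class in OVX_E2_PBDE against OVX_E2, from 2.40-fold (2.18 to 2.65) in L-Alv-like to 3.00-fold (2.65 to 3.39) in basal-like cells. Both comparisons share OVX_E2, which stood at 0.642 to 0.994 of OVX over the 4 classes. Among the partners of the members, Slc22a17, a receptor for lipocalin 2, was at 15.6 CPM in L-Hor-like cells and 13.9 CPM in fibroblast-like cells, Lrp1, a receptor for lactoferrin, at 316 CPM in fibroblast-like cells, and Cd163, the macrophage receptor for haptoglobin bound to hemoglobin, at 9.98 CPM in hematopoietic-like cells.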

How the data were processed

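Per the file headers and labels, the authors deposited raw UMI counts per gene and barcode for 5 10x libraries, made with Cell Ranger 2.0.0 on mm10. Barcodes with at least 500 genes, at least 1000 UMIs and at most 10% mitochondrial UMIs were kept. Each library was clustered alone in Seurat 5.3.0 (R 4.3.3) with 2000 variable genes, 10 principal components and 20 neighbours at resolution 0.3 for OVX and 0.5 for the others, with the 10 genes and the related lists left out. Clusters were scored for 84 markers in 13 lists and named from these scores. The plasma, adipocyte and Schwann lists were scored but could not name a cluster. Doublets were not removed. They are addressed by the separate mixed luminal class and by leaving out the top 20% of Scrublet scores (scanpy 1.11.5).

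Counts were summed by class and library in Python 3.11.15, with intervals from scipy 1.17.1. The members and lists were chosen with earlier results of these data known. Named genes were the 10 members, a part of the listed genes past 2-fold, and for each member with at least 500 UMIs the 3 genes most like it in pattern. Other listed genes are named for their level and were chosen after their values were seen. Trbc2, Igha, Ighm and Cebpd were not analysed here.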

Additional observations from a re-analysis of the deposited data

How the results depend on the processing

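Among 89 log2 ratios of the 10 genes between treatments, 25 were past 2-fold besides that of Dmbt1 against 0 UMIs. Of these, 9 stayed past it with each alternative that gave a value. An alternative that gave no ratio was not counted as a loss. Among the 9, Saa3 in fibroblast-like and Hp in basal-like cells of OVX_E2 against OVX had none without the top cell of each sum. After thinning, Defb1 in L-Hor-like cells of OVX_E2_P4 against OVX_E2 had none. Nor had Hp in basal-like cells of OVX_E2_P4_PBDE against OVX_E2_P4. Over 859 alternative values, 8 turned the sign of a ratio past 2-fold, 161 others moved beyond the interval or spread of their value and 690 did not. Part of the 690 was fixed by design, such as all 98 values with a minimum of 20 UMIs, which used the same sums. Adding mixed luminal barcodes likewise could not change a basal-like or fibroblast-like ratio, also among the 9. Of 544 alternative values for ratios under 2-fold, 58 had the other sign. The main counts past 2-fold over the 4 comparisons were 6 in L-Hor-like, 5 in L-Alv-like, 8 in basal-like and 7 in fibroblast-like cells. In each comparison 0.515% to 2.58% of all genes were higher and 0.625% to 6.84% lower in L-Hor-like cells. These shares were 0.846% to 6.55% and 0.956% to 5.73% in L-Alv-like cells. They were 0.591% to 6.16% and 1.84% to 8.12% in basal-like, and 0.287% to 2.64% and 0.477% to 2.13% in fibroblast-like cells. Between the luminal lineages 7 genes were past 2-fold, Pigr among them on 40 and 18 UMIs, with no share of all genes computed. The shares above belong to the main setting, and none was computed for the alternative settings that follow. Classes from markers alone, which set no mixed luminal class apart, gave counts past 2-fold of 11 in L-Hor-like, 10 in L-Alv-like and 5 in basal-like cells. With mixed luminal barcodes added 0 genes divided the lineages. Leaving out the top 20% of Scrublet scores gave 3 in basal-like cells, thinning to 3000 UMIs gave 2 in L-Alv-like and 1 in basal-like cells, where fewer UMIs put genes under the minimum, and a minimum of 20 UMIs gave 11 in fibroblast-like cells. Subtracting the fibroblast-like level, chosen after seeing the data, gave 13 in L-Hor-like and 8 in L-Alv-like cells, and leaving out each library in turn, also chosen after seeing the data, gave 6 to 7 genes between lineages. The log2 ratio of Hp in basal-like cells of OVX_E2_PBDE against OVX_E2 reversed to 1.24 with a mitochondrial limit of 5% and 0.54 with markers alone. For OVX_E2 against OVX, Slpi in L-Alv-like cells reversed to -0.14 with markers alone and -1.40 with mixed luminal barcodes, and Lcn2 in basal-like cells to 0.72 with markers alone. Wfdc2 in L-Alv-like cells of OVX_E2_PBDE against OVX_E2 reversed to 0.10 and 0.15 under markers alone and mixed luminal barcodes, and Lcn2 in L-Hor-like cells of OVX_E2_P4 against OVX_E2 to -0.14 under the latter. Except where stated, the cause was not tested. No paired analysis was possible because each group has 1 library. The 31 L-Alv-like and 60 basal-like cells of OVX limit each comparison with it.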
